A study of Mus musculus with 192 samples.

Results

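RNA of mandibular bone (MdB) was compared between Nrf2-KO and WT mice that stayed on the ground (GC_KO against GC_WT), with 3 mice in each group. These 6 libraries were picked from the 192 of the series by their labels alone, namely the tissue, the ground control condition and the genotype. The series covers 9 tissues of WT and Nrf2-KO mice that were flown in space or kept on the ground, and the comparison described here asks what the loss of Nrf2 changes in the jaw without flight. All mice were males of the C57BL/6 strain (C57BL/6J background) with a labelled age of 12 weeks, and were kept singly in the habitat cages used for the flight. The Nrf2-KO mice carried the Nfe2l2 tm1Ymk allele, which acts in all tissues and throughout life, and mice with an intrahepatic shunt, a vessel fault known in this line, had been screened out by the length of their sleep after anaesthesia. In the flight groups used for comparison, FL_KO had 2 mice (FL01 and FL02) and FL_WT had 3 (FL03, FL05 and FL06), with the same strain, age label and allele. FL04, a Nrf2-KO flight mouse that bled into the gut on its return, was left out. The GC_WT mice were GC03, GC07 and GC08 and the GC_KO mice were GC01, GC02 and GC04, which are different animals of 1 ground experiment. In the main fit, p-values rest on the spread between mice within groups, estimated from the ground and flight libraries together.

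Nrf2, encoded by Nfe2l2, is a transcription factor that is held low by Keap1 in unstressed cells and, once stabilised, binds antioxidant response elements together with a small Maf protein. Its known targets include glutathione transferases, enzymes of glutathione synthesis and the thioredoxin system, NADPH-producing enzymes, quinone and aldehyde reductases, and ferritin and haem oxygenase. In bone, Nrf2 is best known for restraining the formation of osteoclasts, and in the forming incisor it is linked to the iron stored by the enamel-making ameloblasts.

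Depth was even, with totals of 14.29 to 14.72 M expected counts over the 11 MdB libraries. The deposited tissue label was checked against marker lists, whose level was summed as TPM (a share of all transcripts that corrects for their length). The enamel and dentin list, led by amelogenin (Amelx), held 11.04% to 22.04% of all TPM in the 6 ground libraries, and the osteoblast and osteocyte list held 6.10% to 8.72%. Amelx was listed at 58458, 76241 and 113941 TPM in GC_WT and at 112997, 142210 and 43336 TPM in GC_KO, so that tooth-forming genes were abundant beside those of bone, and to an unequal extent from mouse to mouse. The neutrophil granule list reached at most 28.1 TPM, and 14 of its 16 genes had a mean under 1 TPM, so that defining marrow granulocyte genes were near 0. In bulk tissue, fewer cells of a type and less RNA per cell cannot be told apart. Libraries of different genotype differed by a root mean square of 0.382 to 0.445 in log2(TPM + 1), against 0.361 to 0.390 within GC_WT and 0.404 to 0.454 within GC_KO, so no library stood apart and the genotypes did not separate over all genes.

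**Figure D1:**
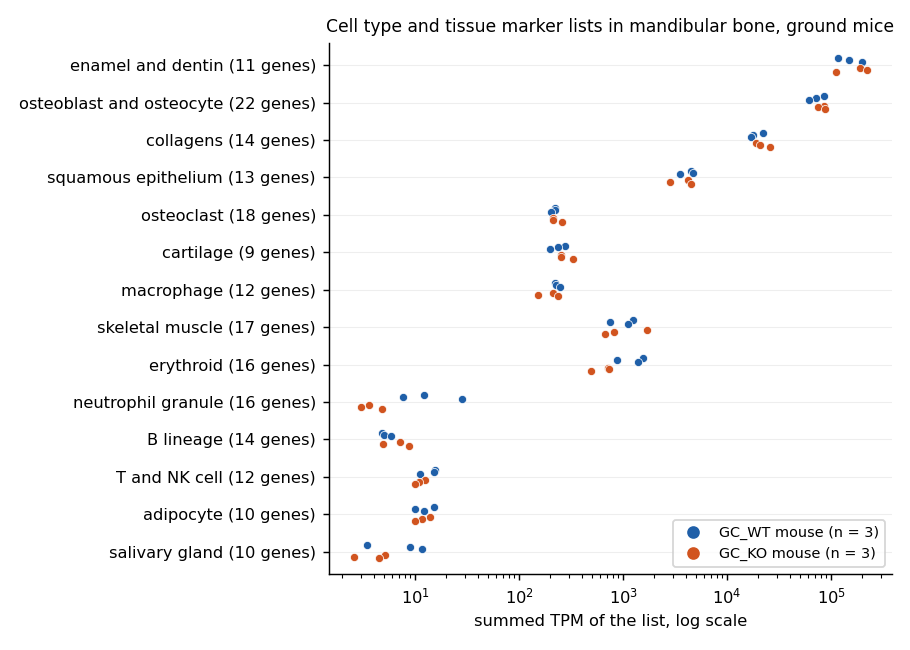
Summed TPM (log axis) of 14 marker lists in the 6 ground libraries, each point 1 mouse, with GC_WT in blue and GC_KO in orange. Enamel, dentin and bone lists sit highest in all 6 mice, and the marrow lists of neutrophils, B and T cells lie below 30 TPM.

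Nfe2l2 itself (2: 75675513 to 75704641, GRCm38, minus strand) checked the genotype labels. Its level was 98.7, 105 and 95.3 TPM in GC03, GC07 and GC08, and 31.3, 31.1 and 36.4 TPM in GC01, GC02 and GC04. All 3 GC_KO mice lay below all 3 GC_WT mice, without overlap. The gene-level value counts all exons together and does not tell deleted from remaining ones. On the count scale the log2 fold change was -1.58 (SE 0.0953), with an adjusted p of 8.83e-06 by edgeR's quasi-likelihood test with Benjamini-Hochberg adjustment over all genes tested. FL_KO mice held 37.5 and 30.3 TPM against 89.3, 105 and 109 TPM in FL_WT, a log2 fold change of -1.49. The other 11 tested members of the regulator list did not pass the test. Keap1, the adaptor that targets Nrf2 for degradation, was at 33.9 ± 2.96 TPM in GC_WT and 34.6 ± 3.75 TPM in GC_KO (SD, n = 3 each), and the partners and relatives Mafg, Bach1 and Nfe2l1 had adjusted p of 0.999 each.

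Across the whole tissue, 40 of 16361 genes tested (0.244%) differed between GC_KO and GC_WT at an adjusted p under 0.05. Of these, 31 genes were lower (0.189%) and 9 were higher (0.055%) in GC_KO. At an unadjusted p under 0.05 the directions were even, with 414 genes lower (2.53%) and 415 higher (2.54%). The median log2 fold change of all genes tested was -0.004. Leaving out 1 mouse brought the count to 26 without GC03, 24 without GC07, 26 without GC02 and 24 without GC04, against 31 without GC01 and 34 without GC08. Of the 39 called genes other than Nfe2l2, 21 kept the call whichever ground mouse was left out, and 18 lost it without at least 1 mouse. All 39 kept their direction under each alternative that could test them.

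**Figure D2:**
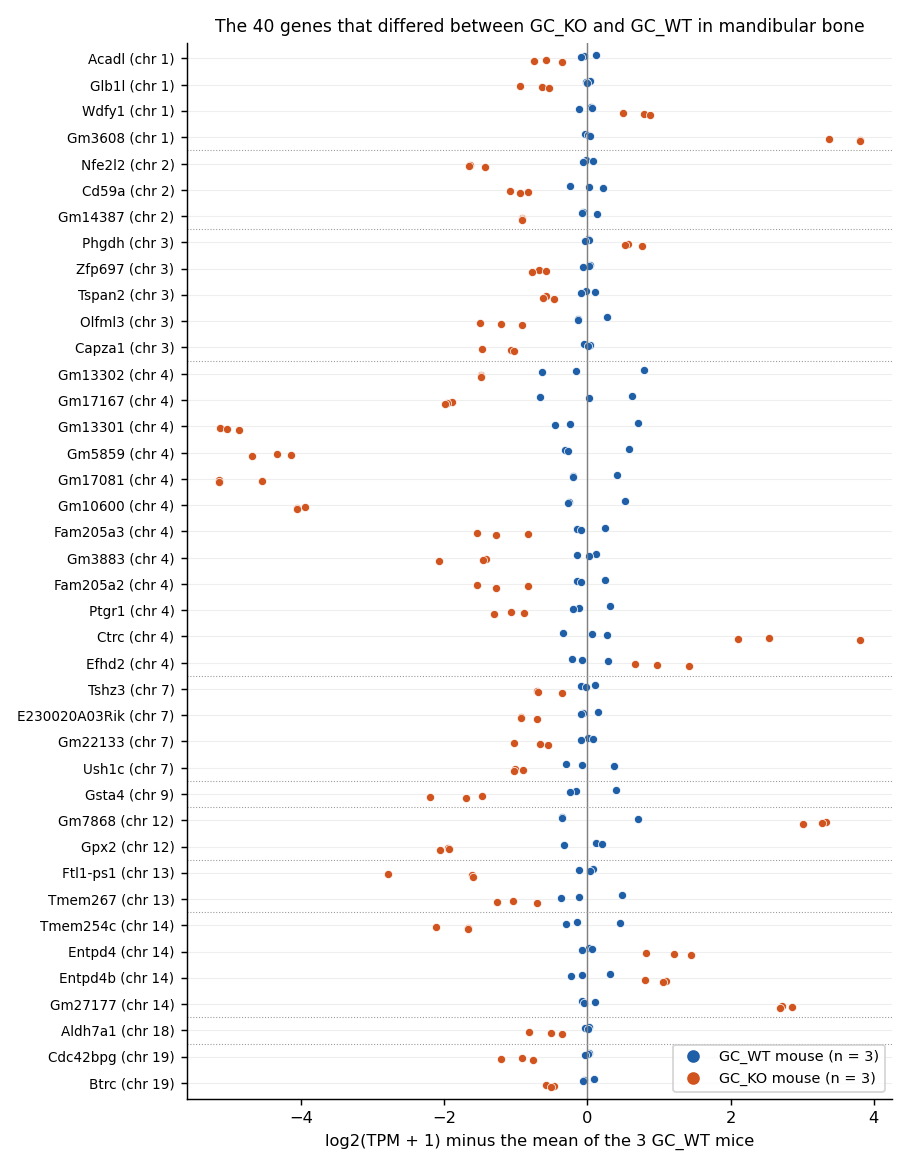
Level of each of the 40 called genes in each ground mouse, as log2(TPM + 1) minus the mean of the 3 GC_WT mice, ordered by chromosome and position, with GC_WT in blue and GC_KO in orange. In each of the 40 genes the orange points do not overlap the blue ones, with 31 genes to the left (lower in GC_KO) and 9 to the right.

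Among known Nrf2 targets, 3 enzymes of glutathione and aldehyde handling fell in GC_KO bone, while the other tested targets were not called. The 6 target lists together named 86 genes, of which 81 were tested and 5 were too low. In GC_KO, 3 were called lower, beside 0.189% of all genes tested, and 0 were called higher, beside 0.055%. At an unadjusted p under 0.05, 15 list members were lower (2.53% of all genes tested were) and 1 was higher (2.54%). The median log2 fold change was -0.16, with 66 members below 0 and 15 above, beside 8339 and 8020 of all genes tested. In flight mice the median over the same genes was -0.01. In 17 members all GC_KO mice lay below all GC_WT mice (4.46% of all genes did), and in 1 member they lay above (2.54%). The lists were written with earlier results of these data known, so these counts describe them and are no independent test.

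Gsta4 (9: 78182774 to 78209349) encodes the glutathione transferase that clears 4-hydroxynonenal, a product of lipid peroxidation, and was the most abundant target that fell. It was at 829.9, 563 and 532 TPM in GC_WT and at 225, 137 and 193 TPM in GC_KO. The groups did not overlap, and the highest GC_KO mouse lay far below the lowest GC_WT mouse. Its log2 fold change was -1.76 (SE 0.226, adjusted p = 0.00499, edgeR). In flight mice the log2 fold change was -1.57 (adjusted p = 0.0353).

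Gpx2 (12: 76792333 to 76795554), a selenium-dependent glutathione peroxidase known best from epithelia, was at 34.5, 36.9 and 25.2 TPM in GC_WT and at 7.51, 7.60 and 6.90 TPM in GC_KO. The GC_KO mice agreed closely and lay far below the GC_WT mice. The log2 fold change was -2.11 (SE 0.202, adjusted p = 0.000403, edgeR), and -1.39 in flight mice (adjusted p = 0.0291). In temporal bone (TpB), the only other tissue in which Gpx2 passed the filter on low counts, the ground log2 fold change was -0.18 (adjusted p = 0.999). Whether the tissues differ was not tested.

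Ptgr1 (4: 58965439 to 58987119), a reductase of leukotriene B4 and of reactive alkenals, was at 17.3, 12.6 and 11.8 TPM in GC_WT and at 6.06, 6.95 and 4.94 TPM in GC_KO. Its log2 fold change was -1.19 (SE 0.197, adjusted p = 0.0333, edgeR). The groups did not overlap, but the call was lost without any 1 of the 6 mice, with adjusted p up to 0.142 (without GC04), and in flight mice the log2 fold change was -0.56 (adjusted p = 0.877). Gsta4 and Gpx2 kept their calls whichever mouse was left out, with adjusted p of at most 0.0433 and 0.00444.

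Other glutathione transferases had lower values in GC_KO without passing the adjusted threshold. Gstm1 was at 118, 95.1 and 59.2 TPM in GC_WT and 33.4, 54.0 and 49.3 TPM in GC_KO, and its log2 fold change of -0.97 had an adjusted p of 0.232. Mgst1, a membrane-bound family member, was at 12.2, 13.2 and 14.1 TPM against 6.11, 5.34 and 6.99 TPM, with an adjusted p of 0.609. In both genes all GC_KO mice lay below all GC_WT mice, as in 5 of the 20 transferases tested (with Gsta4, Gsta3 and Gsta1). Of all genes tested, 4.46% did so. Gsta3 had a log2 fold change of -0.86 and Gstp1, the most abundant after Gsta4 among those named here, of -0.30, and Gsta1 was listed at 3.60 TPM or less in all mice. Over the 20 transferases, 18 log2 fold changes were below 0 and the median was -0.20, and 1 was called. Their median in flight mice was 0.04.

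The genes most often used as readouts of Nrf2 were not called. Nqo1, the quinone reductase, was at 26.3, 29.8 and 25.4 TPM in GC_WT and 14.1, 18.4 and 23.6 TPM in GC_KO, so that the groups just failed to overlap. Its log2 fold change was -0.54 (SE 0.134, adjusted p = 0.339). Hmox1, the inducible haem oxygenase, was at 70.5, 39.5 and 38.4 TPM against 50.4, 34.2 and 61.5 TPM, and the groups overlapped. Both subunits of the enzyme that starts glutathione synthesis, Gclc and Gclm, had log2 fold changes of -0.30 and -0.16 with adjusted p of 0.999, although the groups of Gclm did not overlap. Txnrd1, the thioredoxin reductase, and Srxn1, which repairs oxidised peroxiredoxins, had log2 fold changes of -0.04 and -0.24. Slc7a11, the cystine importer that feeds glutathione synthesis, was at 1.32, 2.29 and 1.66 TPM against 2.44, 3.35 and 3.09 TPM, with a log2 fold change of 0.76 and an adjusted p of 0.808.

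In the remaining target lists, calls were few. G6pdx, which makes NADPH in the pentose phosphate pathway, had a log2 fold change of -0.36 (adjusted p = 0.407), and none of the 6 NADPH enzymes was called. Of the 21 oxidoreductases and conjugating enzymes tested, only Ptgr1 passed, and 18 were below 0. Osgin1, a growth inhibitor induced by oxidative stress, was at 2.98, 2.48 and 2.11 TPM against 1.47, 1.35 and 1.27 TPM (adjusted p = 0.621). Esd, a thioesterase that ends the glutathione-dependent removal of formaldehyde, had a log2 fold change of -0.37 (adjusted p = 0.409), and Ugdh, which makes the sugar donor for glucuronidation, of -0.18 (adjusted p = 0.852). Among the 7 efflux transporters, 0 had an unadjusted p under 0.05 by edgeR.

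The ferritin chains differed in their values. Ftl1 (7: 45457944 to 45459884), the ferritin light chain, was at 3838, 3689 and 3994 TPM in GC_WT and 2340.1, 2628 and 3512 TPM in GC_KO. No GC_KO mouse reached the lowest GC_WT mouse, and the log2 fold change of -0.50 (SE 0.111) had an adjusted p of 0.189 by edgeR, while DESeq2 called the gene. Fth1, the heavy chain that oxidises iron, was at 4427, 4840.5 and 6526 TPM against 4787, 4320.0 and 6712 TPM, and the groups overlapped. Slc40a1, the iron exporter ferroportin, ranged from 48.7 to 184 TPM in GC_WT and from 32.1 to 40.6 TPM in GC_KO, without overlap. Its log2 fold change was -1.58, the SE was 0.659 and the adjusted p was 0.917.

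**Figure D3:**
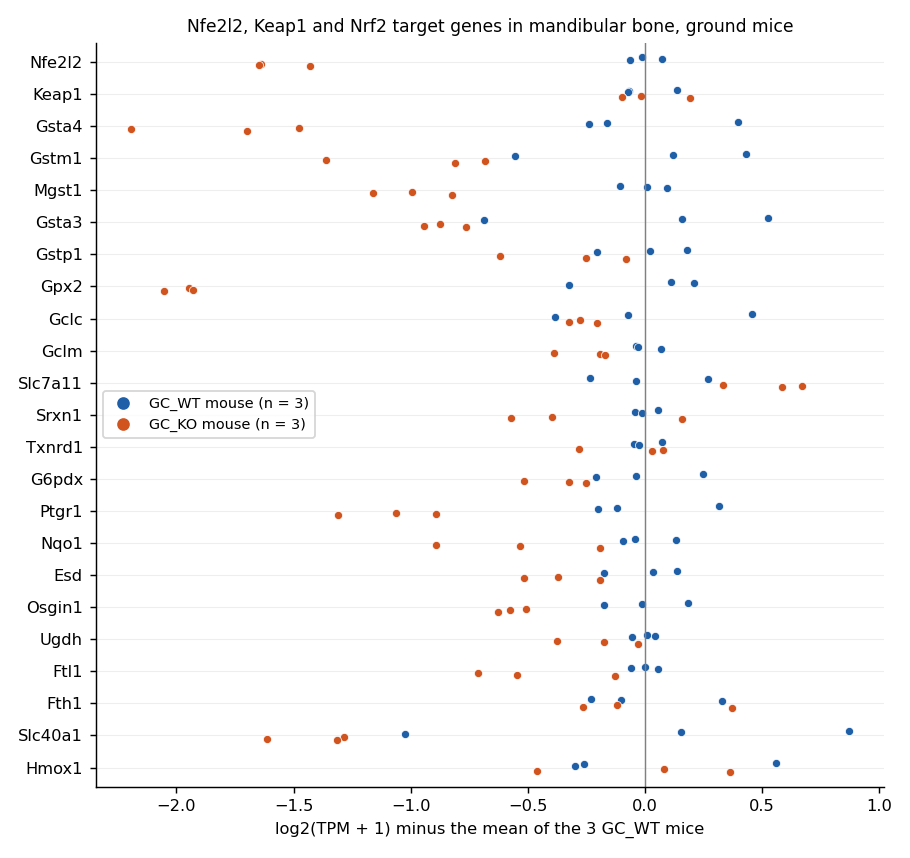
Nfe2l2, Keap1 and Nrf2 target genes in the 6 ground mice, as log2(TPM + 1) minus the mean of the 3 GC_WT mice (blue), with GC_KO mice in orange. In Nfe2l2, Gsta4, Gpx2 and Ptgr1, which were called, all GC_KO mice lie below all GC_WT mice. The same holds in genes that were not called, among them Gstm1, Mgst1, Gsta3, Nqo1, Gclm, Osgin1, Ftl1 and Slc40a1. In Slc7a11, also not called, the GC_KO mice lie above, and in Keap1, Txnrd1, Fth1 and Hmox1 the groups overlap.

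The core of the antioxidant response element, written TGACNNNGC, was searched on both strands in the 250 bases before each RefSeq gene start (GRCm38.p6). It was present for 3112 of 27025 genes (11.5%) and for 13 of the 66 tested target genes that had an entry (19.7%). Of the 15 target genes with an unadjusted p under 0.05 and a lower value in GC_KO, 13 had an entry and 4 of these held a match (30.8%), beside 9 of the 53 other target genes (17.0%). Among the called genes with an entry, 2 of 16 lower ones (Nfe2l2 and Ush1c) and 1 of 3 higher ones (Phgdh) held it. Gpx2 and Ptgr1 had an entry without a match, and Gsta4 had no entry. A match is only a run of letters in this window and was not tested as a binding site. The matches of those 4 target genes (the upstream one of a pair in Ugdh) and of Phgdh are shown so that the element can be read beside the values, with the match in capitals, 60 bases each, 5′ to 3′ in the direction of the gene.
Gsta3 (chr1:21240439-21240498, plus strand): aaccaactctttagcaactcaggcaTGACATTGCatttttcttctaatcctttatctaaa
Mgst1 (chr6:138140446-138140505, plus strand): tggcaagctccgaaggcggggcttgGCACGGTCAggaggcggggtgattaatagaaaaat
G6pdx (chrX:74428903-74428962, minus strand): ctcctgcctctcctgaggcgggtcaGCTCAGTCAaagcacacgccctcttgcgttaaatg
Ugdh (chr5:65435940-65435999, minus strand): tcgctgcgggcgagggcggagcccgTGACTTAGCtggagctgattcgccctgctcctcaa
Phgdh (chr3:98339988-98340047, minus strand): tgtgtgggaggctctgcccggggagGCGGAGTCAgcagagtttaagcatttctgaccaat
Phgdh is added because it was called higher in GC_KO. In Gsta3 and in this Ugdh site the match is on the strand of the gene, and in Mgst1, G6pdx and Phgdh the capitals are its reverse complement.

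Most of the 40 called genes were no listed Nrf2 target, and 25 of them lay in 7 runs of neighbours on the same chromosome with gaps of at most 5 Mb, a grouping made after the values had been seen. How many genes drawn from all tested would lie in such runs was not computed. The runs were unlike, with 9 of 18 tested genes called in a run on chromosome 4 and 5 of 55 in that on chromosome 3. The median log2 fold change over those 55 was -0.006. Chromosome 4 held 12 of the 40 (1.17% of its 1024 tested genes, beside 0.244% of all), and 9 chromosomes from 5 to X held 0, as did the mitochondrial and Y genes. Protein-coding genes made up 28 of the 40 (0.195% of the 14325 tested), and 12 were of other types (0.591% of 2031). Of these 12, 8 were pseudogene models of several kinds. Some called genes have near-identical copies. For 19 of the 40, over 50% of the longest transcript aligned to another gene's transcript at 95% identity or more over at least 76 bases, which is the read length. This share was not computed over all genes tested. Counts of such genes rest on how reads were divided among copies, and each is uncertain on its own.

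The clearest such case was Capza1 and Gm3608. Capza1 (3: 104822779 to 104864505), a subunit of the protein that caps actin filaments, fell with a log2 fold change of -1.20 (SE 0.0907), from 54.3, 57.7 and 56.4 TPM in GC_WT to 19.5, 26.4 and 27.2 TPM in GC_KO. Gm3608 (1: 105455971 to 105458829), a pseudogene on another chromosome, rose with a log2 fold change of 4.35 (SE 0.204), from 1.49, 1.57 and 1.62 TPM to 25.6, 34.8 and 34.96 TPM. Its transcript aligned to that of Capza1 over its full length at 99.55% identity. Summed, the counts of both genes were 98.4, 107 and 108 in GC_WT and 85.2, 105 and 98.2 in GC_KO, as CPM (counts scaled to the library size). The sums of the groups overlapped, with a log2 ratio of the means of -0.12 (GC_KO over GC_WT). Both genes were called in the same direction in all 8 other tissues.

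Txndc9 and Gm7868 also changed in their split. Gm7868 (12: 69123101 to 69123780), a processed pseudogene that aligned to Txndc9 over its full length at 98.7% identity, had 6 counts over the 3 GC_WT libraries, all of them in GC08, and 167 over the 3 GC_KO libraries. The ratio of CPM was 27.7, with a 95% exact interval of 12.5 to 76.5 for counting error only. The call was lost without GC01, GC02, GC03 or GC07, with adjusted p up to 0.0931 (without GC07). Txndc9, a thioredoxin-like protein, was at 46.2, 48.1 and 41.3 CPM in GC_WT and 35.2, 33.5 and 31.5 in GC_KO. Their sum was 45.3 ± 3.34 against 37.3 ± 2.67 CPM (SD, n = 3 each), and here the sums did not overlap.

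Entpd4 and Entpd4b, neighbours on chromosome 14 whose longest transcripts are identical, both rose. Entpd4 encodes a nucleotide-cleaving enzyme of the Golgi and lysosomes. Entpd4 was at 17.1, 17.7 and 15.9 TPM in GC_WT and 30.5, 40.4 and 48.1 TPM in GC_KO (log2 fold change 1.14, SE 0.101, adjusted p = 0.000209, edgeR), and Entpd4b had a log2 fold change of 1.03 (SE 0.134). Here the sum rose too, from 59.1 ± 8.09 to 126 ± 8.80 CPM. Gm27177, an antisense model that overlaps Entpd4b and Loxl2 and whose transcript is identical to that of Gm16867, had 9 counts in GC_WT and 416 in GC_KO. Its ratio of CPM was 46.0 (95% exact interval 24.0 to 101). The strand setting of the counting is not given in the sources used here, and without it antisense reads cannot be assigned with certainty.

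**Figure D4:**
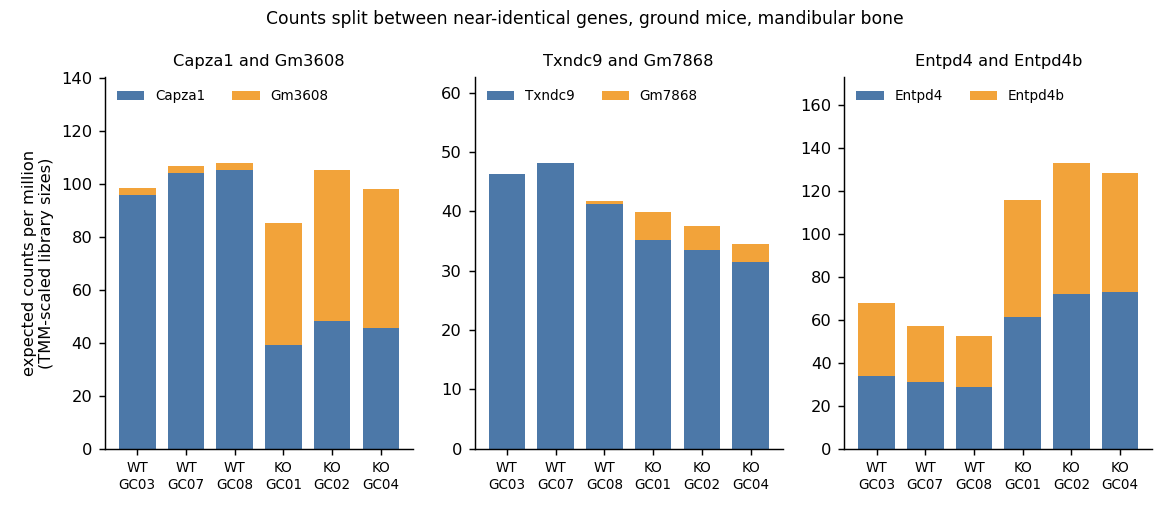
CPM (from expected counts) of 3 pairs of near-identical genes in each ground mouse, stacked, so that the full bar is the sum. The split between Capza1 and Gm3608 changes while the sum overlaps between groups, whereas the sum of Entpd4 and Entpd4b is higher in each GC_KO mouse.

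A copy of the ferritin light chain gene and a model inside that gene were lower in GC_KO. Ftl1-ps1 (13: 74399694 to 74407346), whose transcript aligned to Ftl1 over 99.1% of its length at 97.3% identity, was at 97.2, 84.3 and 94.6 TPM in GC_WT and 12.5, 29.4 and 29.6 TPM in GC_KO. Its log2 fold change was -1.95 (SE 0.261, adjusted p = 0.00620, edgeR). Gm22133, a microRNA model inside Ftl1 that is fully identical to it, fell as well, with a log2 fold change of -0.72 (adjusted p = 0.00499). It lies on the strand of Ftl1, so it is no separate copy and its counts are not independent of those of Ftl1. The sum of the 3 genes was 2121, 2046 and 2236 CPM in GC_WT and 1401, 1373 and 1637 in GC_KO. The groups did not overlap, with a log2 ratio of the means of -0.54, close to that of Ftl1 alone (-0.50).

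In a cluster of copies on chromosome 4, between 41893388 and 42528175, several genes were near 0 in GC_KO. It held 9 of the 12 called genes of that chromosome, all lower, among 18 tested. Gm13301 was at 56.0, 28.6 and 24.6 TPM in GC_WT and 0, 0.07 and 0.21 TPM in GC_KO. Gm5859 was at 42.8, 22.4 and 23.2 TPM against 0.45, 0.66 and 0.13 TPM, and Gm10600 had 817 counts against 1 (ratio 821, 95% exact interval 147 to 32500). No GC_KO mouse came near the GC_WT level in these genes. Gm17081 and Gm17167 had 359 and 425 counts in GC_WT against 2 and 7 in GC_KO. Gm13302 had 92 counts in GC_WT and 0 in GC_KO, where the floor of 3 counts per library makes it at least 10.3-fold lower. Its call was lost without GC01, GC02, GC04 or GC07 (adjusted p up to 0.142, without GC04). Fam205a2 and Fam205a3 had the same counts in all 11 libraries (log2 fold change -1.55, SE 0.221, adjusted p = 0.00979), lost without GC03 or GC04 (up to 0.0717, without GC04). Gm3883 had 313 counts against 48, and its call was lost without GC02, GC03, GC07 or GC08 (adjusted p up to 0.111, without GC03).

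On chromosome 3, a stretch from 98313170 to 104864505 held Capza1 and 4 more called genes among 55 tested. Phgdh (3: 98313170 to 98339990), the first enzyme of serine synthesis, rose from 28.6, 28.8 and 27.7 TPM to 42.6, 41.3 and 48.8 TPM (log2 fold change 0.66, SE 0.0775, adjusted p = 0.00261, edgeR). Its transcript aligned over 84.9% of its length to Gm9347. Olfml3 (3: 103722222 to 103738001), a secreted matrix glycoprotein, fell from 161, 121 and 121 TPM to 46.6, 57.0 and 70.6 TPM (log2 fold change -1.20, SE 0.133, adjusted p = 0.00153). Both genes kept the call whichever mouse was left out. Zfp697, a zinc finger protein, and Tspan2, a tetraspanin, had log2 fold changes of -0.83 and -0.62, and lost the call without any 1 of the 6 mice (adjusted p up to 0.211 without GC04 and 0.222 without GC07).

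On the far end of chromosome 4, Ctrc and its neighbour Efhd2 rose. Ctrc (4: 141814962 to 141846359) encodes chymotrypsin C, a digestive protease of the pancreas, and passed the filter on low counts in MdB alone of the 9 tissues. It was at 3.45, 4.93 and 5.81 TPM in GC_WT and 31.8, 23.3 and 78.3 TPM in GC_KO (log2 fold change 3.41, SE 0.416, adjusted p = 0.00340, edgeR). The GC_KO mice differed among themselves by more than the whole GC_WT range, and the lowest of them was still above all GC_WT mice. In flight mice Ctrc was at 39.9 and 57.5 TPM in FL_KO against 4.17, 6.02 and 4.67 TPM in FL_WT. Efhd2 (4: 141858142 to 141874920), a calcium-binding protein, was at 44.4, 48.8 and 62.7 TPM against 81.7, 102 and 139 TPM, with a log2 fold change of 1.04 (adjusted p = 0.0175). Its call was lost without GC02, GC03, GC04 or GC07, with adjusted p up to 0.125 (without GC07).

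Cdc42bpg (19: 6306456 to 6325652), a kinase that acts on the actomyosin skeleton, fell from 47.4, 46.6 and 45.3 TPM to 24.2, 19.5 and 27.0 TPM (log2 fold change -0.96, adjusted p = 0.00599). Cd59a (2: 104095801 to 104115354), which shields cells from the complement membrane attack complex, was at 99.8, 121 and 137 TPM against 55.6, 66.1 and 61.3 TPM. Its log2 fold change was -0.96 (SE 0.134, adjusted p = 0.00928), and the call was lost without GC04 or GC07 (adjusted p up to 0.0717, without GC04). On chromosome 1, a stretch with 26 tested genes held Glb1l and Wdfy1. Glb1l, a relative of lysosomal beta-galactosidase, fell with a log2 fold change of -0.75, and Wdfy1 (1: 79702262 to 79776143), a protein of early endosomes, rose by 0.82 (SE 0.0948, adjusted p = 0.00234). Both kept the call without any 1 mouse.

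Tmem254c had 1405 counts in GC_WT and 368 in GC_KO. Its transcript is identical to that of Tmem254a, and the sum of Tmem254a, Tmem254b and Tmem254c was 45.1, 74.5 and 55.6 CPM against 17.8, 21.4 and 17.0, and the sums did not overlap, with a log2 ratio of the means of -1.64. Tmem267, a transmembrane protein, was at 23.7, 15.3 and 12.6 TPM against 7.56, 6.34 and 9.82 TPM, and lost the call without GC01, GC02, GC04 or GC07 (adjusted p up to 0.139, without GC02). Tshz3, a developmental transcription factor, had a log2 fold change of -0.63, and E230020A03Rik, a model inside Tshz3 on the same strand, of -0.97. Tshz3 lost the call without any 1 mouse (up to 0.172, without GC02), and E230020A03Rik without all but GC08 (up to 0.0873, without GC03).

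Among metabolic and regulatory genes, Acadl, which starts the mitochondrial breakdown of long-chain fatty acids, was at 65.8, 58.4 and 56.6 TPM in GC_WT and 40.03, 35.4 and 46.8 TPM in GC_KO. Aldh7a1, an aldehyde dehydrogenase of lysine breakdown, was at 40.3, 38.5 and 39.95 TPM against 22.2, 27.5 and 30.8 TPM. Btrc, the F-box protein that marks beta-catenin, IkB and also Nrf2 for degradation, was at 26.6, 24.1 and 23.9 TPM against 16.4, 17.7 and 17.1 TPM. In these 3 genes the groups did not overlap, the log2 fold changes were -0.55, -0.52 and -0.49, and the calls were lost without any 1 of the 6 mice (adjusted p up to 0.145, 0.150 and 0.164, without GC03, GC08 and GC04). Ush1c, a scaffold protein of sensory hair cells and gut epithelium, had 73 counts against 11, and lost the call without any of 5 mice, all but GC03 (up to 0.225, without GC04). Gm14387, a pseudogene, had 44 counts in GC_WT and 0 in GC_KO, at least 4.91-fold lower, and lost the call without any 1 mouse (up to 0.159, without GC04).

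The neighbourhood of Nfe2l2 was described separately. Within 20 Mb of Nfe2l2, 0 of 200 other tested genes were called by edgeR, and 18 (9%) had an unadjusted p under 0.05 in either direction. Of all 16361 genes tested, 829 did so in either direction (2.54% higher and 2.53% lower). The smallest adjusted p was 0.351, for 2810002D19Rik, 18.7 Mb away, which had a log2 fold change of -0.64. E030042O20Rik, a transcript that starts next to Nfe2l2 on the other side, had a log2 fold change of -1.56 (SE 0.468) and an adjusted p of 0.621. Syt13 had a log2 fold change of 0.68, Alx4, a homeobox factor of skull development, of -0.31, Accs of -0.46 and Ttc17 of 0.25, with adjusted p of 0.539 to 0.781. Within 40 Mb, Cd59a was the 1 gene called among 321.

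The lists of the tissue itself held 0 called genes by edgeR. Of 19 osteoblast and osteocyte genes tested, 4 had an unadjusted p under 0.05, all higher in GC_KO (2.54% of all genes tested were). On the ground, 14 of the 19 log2 fold changes were above 0 and 5 were below, the lowest at -0.25. Of all genes tested, 8020 were above 0 and 8339 below. The median log2 fold change of this list was 0.09 on the ground and 0.03 in flight mice. The members named next are all among those above 0. Sost, the Wnt inhibitor made by osteocytes, was at 3.24, 3.23 and 2.57 TPM in GC_WT and 5.14, 6.65 and 6.59 TPM in GC_KO. The groups did not overlap, and the adjusted p was 0.407. Alpl, the phosphatase needed for mineralisation, was at 809.9, 676 and 822 TPM against 826, 918 and 1206 TPM (log2 fold change 0.36, adjusted p = 0.683), and Phex, which limits phosphate loss, had a log2 fold change of 0.36 (adjusted p = 0.917). Bglap, the osteocalcin gene, and Col1a1 had log2 fold changes of 0.22 and 0.21 with adjusted p of 0.999. In flight mice the log2 fold changes of Alpl, Phex and Col1a1 were -0.02, -0.08 and -0.03.

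The osteoclast list summed to 203 to 257 TPM in the 6 mice. Of its 13 tested genes, 1 was higher at an unadjusted p under 0.05, beside 2.54% of all genes tested. This was Tnfrsf11b, which encodes the osteoclast inhibitor osteoprotegerin and is made by osteoblasts. Tnfrsf11b was at 5.76, 5.54 and 5.38 TPM in GC_WT and 6.52, 7.89 and 11.6 TPM in GC_KO (log2 fold change 0.64, SE 0.148, adjusted p = 0.221, edgeR). The median over the osteoclast list was 0.09, and 8 of its 18 genes had a mean under 1 TPM. Among 11 enamel and dentin genes, 8 log2 fold changes were above 0 and 3 below. Their median was 0.07 on the ground and -0.09 in flight mice. Odaph had a log2 fold change of 0.54 (adjusted p = 0.663) and Dspp, the dentin phosphoprotein, of 0.35 (adjusted p = 0.999). Amelx had a log2 fold change of 0.30 with an SE of 0.418, as the mice of each group differed widely. The cartilage and collagen lists, with 7 and 14 tested genes, had medians of 0.11 and 0.07.

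The erythroid list summed to 879 to 1551 TPM in GC_WT and 492 to 735 TPM in GC_KO, without overlap. At an unadjusted p under 0.05, 5 of its 8 tested genes were lower and 1 was higher, and 0 were called by edgeR. Of all genes tested, 2.53% were lower and 2.54% higher at this threshold. In flight the list went the other way, with 311 to 493 TPM in FL_WT and 662 and 1309 TPM in FL_KO. Its median log2 fold change was -0.99 on the ground and 1.19 in flight mice. Slc4a1, the anion exchanger of red cells, had a log2 fold change of -2.29 (adjusted p = 0.488) and Sptb, a spectrin, of 0.51. Hba-a1 and Hba-a2, the alpha globins, had log2 fold changes of -1.02 and -0.96 (adjusted p = 0.672 and 0.686), and Hbb-bs and Hbb-bt, the beta globins, of -0.87 and -1.11 (adjusted p = 0.852 and 0.831). The neutrophil genes S100a8 and S100a9 stood at 2.28 to 7.45 TPM in GC_WT and at 0 to 1.73 TPM in GC_KO. Of the 16 neutrophil genes 3 were tested, all lower at an unadjusted p under 0.05. The median of these 3 was -2.07 on the ground and 0.23 in flight mice. How far blood content moves with any called gene was not tested. The skeletal muscle list ranged from 743 to 1236 TPM in GC_WT and from 664 to 1710.1 TPM in GC_KO, and the groups overlapped.

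The flight mice gave the same comparison in other animals. In FL_KO against FL_WT, 34 genes were called (0.208%), from 2 and 3 mice. The count fell to 17 without FL05, 14 without FL01 and 16 without FL02. Of the 40 ground genes, 39 had the same direction in flight (97.5%, beside 48.0% of the other genes tested), and 25 were called there in the same direction. Gm14387 was the exception, at 0.47 to 1.26 TPM in FL_WT and 0.70 and 1.39 TPM in FL_KO. The counts of 39 and 25 include Nfe2l2 itself and copies that share reads, such as Fam205a2 and Fam205a3. They are therefore not that many separate observations, and the same holds for the counts in other tissues below. Among target genes, Gsta4 and Gpx2 were called in both comparisons and Ptgr1 on the ground. The genotype by flight interaction, which tests whether the ground and flight differences are unequal, gave 0 calls by edgeR with 827 genes at an unadjusted p under 0.05, against 7 calls by DESeq2, among them Hba-a1, Hbb-bt and Gm14387, and 6 by limma. By the main edgeR fit, differences in what was called on the ground and in flight are thus not shown to be differences between the conditions. For Gm14387, Hba-a1 and Hbb-bt the outcome depended on the processing, as edgeR with no filter on low counts also called their interaction.

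**Figure D5:**
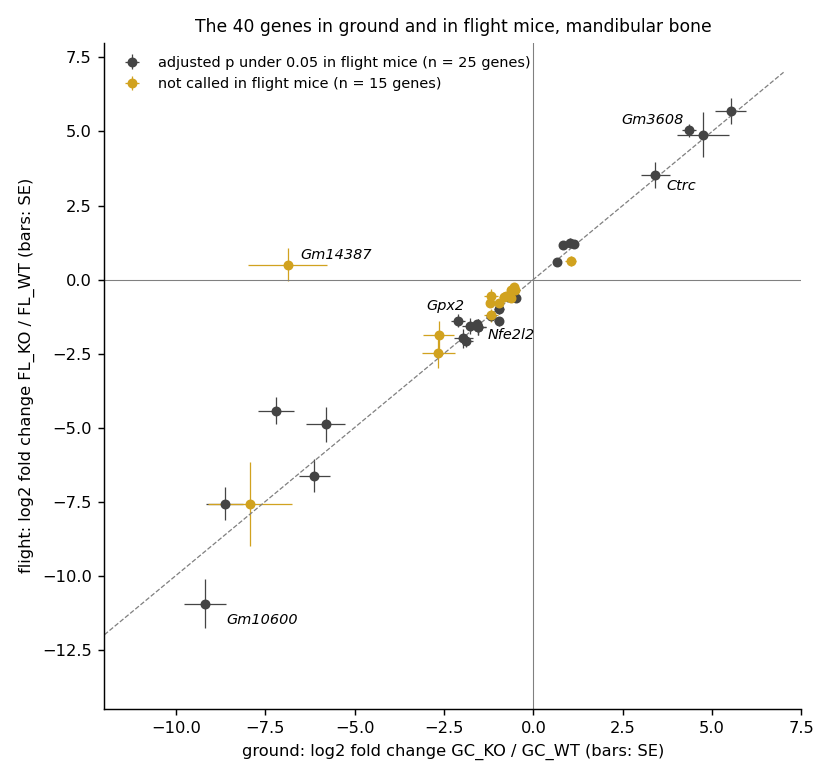
Log2 fold change of the 40 genes in ground mice (GC_KO over GC_WT, n = 3 and 3) against flight mice (FL_KO over FL_WT, n = 2 and 3), with SE bars and the line of equal values dashed. Of the 40 points, 39 lie in the quadrants of equal sign and Gm14387 does not, and 25 (dark) were also called in flight.

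Temporal bone was the other bone of the same ground experiment, with 6 mice in each group, and gave 36 calls (0.198%). There, 36 of the 39 MdB genes that were tested had the same direction (92.3%, beside 51.9% of the other genes), and 21 were called in the same direction. In the TpB mice that had no MdB library (3 in each group), where 18 genes were called (0.0976%), 34 of the 39 had the same direction and 13 were called. The genes that were called again included Capza1 with all mice, and Gm3608, Gm13301, Gm5859, Gm27177, Entpd4, Wdfy1, Tmem267 and Ftl1-ps1 in either set of mice. Gsta4, Gpx2, Ptgr1, Phgdh and Efhd2 had log2 fold changes of 0.09, -0.18, -0.33, 0.09 and -0.11 in TpB with all mice and were not called there.

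Over all tissues of ground mice, which came from partly the same animals, 16 of the 40 genes were called in the same direction in each other tissue where they were tested, and 20 in at least 4. Nfe2l2, Capza1, Gm3608, Wdfy1, Cdc42bpg, Tmem267, Entpd4, Entpd4b, Gm27177, Gm7868, Gm5859, Gm13301 and Gm17167 were called in all 9 tissues. By contrast, 8 genes were called in the same direction in 0 other tissues by edgeR: Ptgr1, Gpx2, Efhd2, Phgdh, Tspan2, Ush1c, Gm14387 and Ctrc, of which Ctrc was tested in MdB alone. Gsta4 was called in 2 other tissues, with log2 fold changes over the 9 tissues from -1.76 in MdB to 0.09. Tshz3, Acadl, Olfml3, Ush1c, Phgdh and Gm14387 were called in the opposite direction in 1 other tissue each. These counts are of calls, and differences between tissues were not tested. Thymus libraries were depleted of ribosomal RNA and the others were selected for poly(A), so the tissues do not share 1 library type.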

How the data were processed

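Mandibular bone RNA was isolated by the authors, selected for poly(A), made into strand-specific libraries and sequenced on a HiSeq2500 as single reads. Per the submitters' processing notes, reads were mapped to mm10 with STAR 2.6.1 and quantified with RSEM 1.3.1. Gene-level expected counts, in which RSEM shares out reads that match several genes, and TPM values were used as deposited. A further 192 columns of FPKM were not used. Expected counts were rounded and the 11 MdB libraries of 4 groups (FL04 left out) were fitted together in edgeR 4.0.16 (R 4.3.3), with filterByExpr by group, TMM factors, the quasi-likelihood test and Benjamini-Hochberg adjustment over all genes tested, and calls at an adjusted p under 0.05. SE values are the fold change divided by the root of the F statistic. The other tissues were fitted likewise. Per the paper, thymus RNA was depleted of ribosomal RNA in place of the poly(A) selection used for the other tissues. The fit was repeated with DESeq2 1.42.0, with limma 3.58.1 after adding 1 or 0.1 to TPM (log2 scale, with or without a minimum mean of 5 TPM), RLE factors, no filter on low counts, FL04 included, the 6 ground libraries alone, and each mouse left out in turn. The functions were tested on simulated counts. Coordinates are from GENCODE vM21 on GRCm38, which held 99.9% of the 54752 gene IDs. Transcripts were compared with blastn. Intervals for count ratios and the floor of 3 counts cover counting error only. Named were Nfe2l2, all called genes, members of the Nrf2 lists, up to 4 members of other lists and up to 6 genes near Nfe2l2 by smallest p. Amelx, Bglap, Col1a1, Hbb-bs, Hbb-bt and Txndc9, the summed copies and the runs of neighbours were added after the values had been seen. The groups, lists and members were chosen with earlier results of these data known.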

Additional observations from a re-analysis of the deposited data

Results flagged for a closer look

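Of the named genes, 8 contrasts went in opposite directions without overlap between mice, and the values here are differences of mean log2(TPM + 1), KO minus WT. In MdB of flight mice the globin genes were higher in FL_KO, by 1.74 for Hba-a1, 0.825 for Hba-a2 and 1.3 for Hbb-bs, whereas on the ground they were lower in GC_KO, by 1.04, 0.966 and 0.895. The interaction test gave unadjusted p of 7.79e-05, 0.00115 and 0.000812 and adjusted p of 0.752, 0.932 and 0.932 (edgeR), with 2 FL_KO mice. Against other tissues of ground mice, Olfml3 was higher in white adipose tissue (eWAT) of GC_KO (0.979) and lower in MdB (-1.20), and Phgdh was lower in eWAT (-0.591) and higher in MdB (0.620). Acadl was higher in spleen (0.564), Ush1c in cerebrum (0.566) and Accs in kidney (0.267), against -0.560, -0.977 and -0.338 in MdB. The differences between tissues were not tested.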

How the results depend on the processing

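The count of 40 genes was 67 with DESeq2 and 67 with no filter on low counts, 21 with the 6 ground libraries alone, 23 with limma on log2(TPM + 0.1) and 19 with limma and no filter on TPM, and 24 to 34 with 1 mouse left out. DESeq2 kept all 40 genes, and the 21 genes of the ground-only fit were all among the 40. Target genes called were 5 with DESeq2 (Gstm1 and Ftl1 added) and 1 with limma and no filter (Gpx2), against 3, and 2 to 3 with 1 mouse left out. Nfe2l2 kept its call under all alternatives, at -1.61 to -1.54 with 1 mouse left out. The flight count of 34 was 79 with DESeq2, 93 with no filter, 55 with FL04 included and 14 to 31 with 1 mouse left out. The interaction count of 0 was 7 with DESeq2, 6 with limma, 12 with no filter and 0 to 2 with 1 mouse left out (Gm21320 and Ahsg without FL06, and Krt16 without GC08). TpB gave 65 genes with DESeq2 and 18 in mice with no MdB library, against 36. Within 40 Mb of Nfe2l2, 1 gene was called. The cause of these changes was not tested, apart from the fewer samples or other genes tested that a setting brings.

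Among the named genes, directions turned in 4 that were not called: Fth1 (-0.00357 in each limma fit, and -0.13 to 0.21 with 1 mouse left out), Hmox1 (0.00172 with no filter, and -0.14 to 0.32), Txnrd1 (-0.10 to 0.011) and Amelx (-0.014 to 0.69). Of the 39 called genes other than Nfe2l2, 9 kept the call under each alternative that tested them. No paired analysis was possible because the GC_WT and GC_KO mice share no mouse number. With 3 mice per group, small changes of low or variable genes were not detectable.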

Other observations

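Housekeeping and stress lists gave 0 calls in GC_KO against GC_WT by edgeR. The cytosolic ribosomal protein genes had a median log2 fold change of -0.09, with 21 of 23 below 0, and 0 had an unadjusted p under 0.05. The oxidative phosphorylation genes had a median of 0.04, with 22 of 26 above 0, and the proteasome genes of 0.05. The glucocorticoid response list had a median of 0.32, with 10 of 11 above 0 and 2 at an unadjusted p under 0.05. In the circadian clock list the median was 0.29, and 3 of 16 genes were higher at an unadjusted p under 0.05, and in the immediate early list it was 0.19, with 3 of 16. Proliferation genes had a median of -0.22, with 17 of 19 below 0 and 1 lower at an unadjusted p under 0.05. Of all genes tested, 2.54% were higher and 2.53% lower at this threshold. In flight mice the medians were 0.11 for the ribosomal protein list, 0.20 for oxidative phosphorylation, 0.21 for the proteasome, 0.34 for the glucocorticoid response, -0.004 for the clock, 0.12 for the immediate early list and -0.03 for proliferation.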
